A study of Mus musculus with 18 samples.

Results

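Gene-desert regions of H3K9me3 were described in mouse embryonic stem cells (mESCs) of 3 genotypes. A region is the stretch formed by overlapping H3K9me3 peaks of 6 libraries, and it was counted as a gene-desert region when it lay 100 kb or more from every transcript of the annotation deposited with the data, which holds 106522 transcripts. Of the 145014 merged regions on chromosomes 1 to 19 without chromosome 2, 19566 met this distance. Chromosome 2, which carries the silencing reporter of the study, was left out. The 6 libraries are H3K9me3 ChIP-seq of E14TG2a cells, an established male mESC line grown in serum and LIF, as 2 libraries each of wild-type (WT) cells, of *Uhrf1* knockout (*Uhrf1* KO) cells and of *Dhx9* knockout (*Dhx9* KO) cells. The *Uhrf1* KO lines were clones made with CRISPR-Cas9 in cells that also carry the inducible reporter system, and how the *Dhx9* KO line was made is not given in the sources used here. The paper labels the wild-type cells of its H3K9me3 comparison with *Uhrf1* KO as carrying the eGFP reporter too. Peak lists hold no RNA and no genotype, so the knockouts could not be checked from them. Each knockout was compared here with wild-type cells in the sequence farthest from genes.

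H3K9me3 is the trimethyl mark on lysine 9 of histone H3. It is laid down by SETDB1 and the SUV39H enzymes, is bound by HP1 proteins, and marks silent chromatin. In mESCs it is best known at endogenous retroviruses and other transposable elements, at satellite repeats beside the centromeres and at imprinted loci, and gene deserts, long stretches with no annotated transcript, are rich in transposable elements. UHRF1 binds hemimethylated CpG sites after replication and brings in DNMT1, which copies DNA methylation to the new strand. DHX9 is an RNA helicase that unwinds RNA duplexes and RNA-DNA hybrids.

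The sequences below are the central 300 bases of 7 gene-desert regions to which the results return, from the plus strand of the mouse reference GRCm38 (mm10) of RefSeq, and capitals mark CpG sites, the dinucleotide whose methylation UHRF1 maintains. Each line gives the genes on either side of the region and the position of the bases shown. The first had the highest lowest log2 fold over background among regions of at least 2 kb called in all 6 libraries.
Macc1-Tmem196, chr12:119591951-119592250: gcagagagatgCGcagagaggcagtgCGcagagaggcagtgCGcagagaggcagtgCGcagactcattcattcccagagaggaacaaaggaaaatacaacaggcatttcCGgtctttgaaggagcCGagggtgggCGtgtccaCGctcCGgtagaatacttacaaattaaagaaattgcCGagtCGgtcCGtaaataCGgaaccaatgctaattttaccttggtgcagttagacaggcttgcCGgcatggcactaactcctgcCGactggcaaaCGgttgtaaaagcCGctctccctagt
The next pair shared a run of bases on opposite strands. The first was strong in all 6 libraries and the second was called in the *Uhrf1* KO libraries alone.
Gm32936-LOC108167369, chr12:60713051-60713350: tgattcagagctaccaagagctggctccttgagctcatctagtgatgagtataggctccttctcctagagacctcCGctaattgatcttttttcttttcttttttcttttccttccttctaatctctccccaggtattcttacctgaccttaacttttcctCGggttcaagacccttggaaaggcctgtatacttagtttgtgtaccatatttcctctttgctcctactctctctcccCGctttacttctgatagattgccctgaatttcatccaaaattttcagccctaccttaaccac
Gm20756-Gm30779, chr6:26152151-26152450: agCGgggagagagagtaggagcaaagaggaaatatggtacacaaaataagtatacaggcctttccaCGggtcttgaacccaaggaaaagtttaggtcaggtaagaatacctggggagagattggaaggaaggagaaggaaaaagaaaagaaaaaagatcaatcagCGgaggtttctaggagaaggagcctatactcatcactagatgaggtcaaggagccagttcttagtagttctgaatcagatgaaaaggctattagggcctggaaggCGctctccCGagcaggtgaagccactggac
The pair after it was called in both wild-type and both *Uhrf1* KO libraries and in neither *Dhx9* KO library.
4930590L20Rik-Gm35244, chr1:141036451-141036750: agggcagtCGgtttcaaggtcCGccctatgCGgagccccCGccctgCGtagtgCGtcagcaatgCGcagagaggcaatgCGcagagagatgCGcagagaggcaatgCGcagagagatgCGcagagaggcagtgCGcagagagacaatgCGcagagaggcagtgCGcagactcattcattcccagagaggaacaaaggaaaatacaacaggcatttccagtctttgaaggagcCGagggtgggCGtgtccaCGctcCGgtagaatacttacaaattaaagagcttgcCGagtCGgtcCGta
Gm41480-Gm41481, chr16:82584451-82584750: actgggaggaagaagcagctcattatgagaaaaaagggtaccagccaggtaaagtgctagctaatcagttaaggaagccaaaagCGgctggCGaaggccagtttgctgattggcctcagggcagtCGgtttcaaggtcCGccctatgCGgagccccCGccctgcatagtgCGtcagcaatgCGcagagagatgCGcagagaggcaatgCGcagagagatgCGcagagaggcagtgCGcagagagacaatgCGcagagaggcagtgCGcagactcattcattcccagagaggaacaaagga
The last pair had lower read counts in *Uhrf1* KO than in wild-type cells, and the second of them begins at the first known base of its chromosome.
C330004P14Rik-Gm20125, chr10:15972751-15973050: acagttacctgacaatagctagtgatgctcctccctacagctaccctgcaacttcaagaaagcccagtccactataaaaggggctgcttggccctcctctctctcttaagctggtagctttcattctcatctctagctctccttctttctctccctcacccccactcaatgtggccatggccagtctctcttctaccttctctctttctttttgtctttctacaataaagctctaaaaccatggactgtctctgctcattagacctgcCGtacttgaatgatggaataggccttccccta
start of chromosome 3 to Hnf4g, chr3:3016751-3017050: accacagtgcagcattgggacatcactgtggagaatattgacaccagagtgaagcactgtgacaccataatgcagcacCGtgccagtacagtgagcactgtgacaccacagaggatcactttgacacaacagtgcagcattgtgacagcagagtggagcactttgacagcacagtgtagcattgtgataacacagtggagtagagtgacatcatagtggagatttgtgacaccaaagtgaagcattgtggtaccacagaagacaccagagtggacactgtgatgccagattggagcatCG

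The windows differed in CpG sites and in how often their words recur in the genome. The Macc1-Tmem196 window held 17 CpG sites in 300 bases, all of it soft-masked as repeat in the reference, and its 31-base words had a median of 877 exact copies in the genome. The C330004P14Rik-Gm20125 window held 1 CpG site at a GC content of 47.3%, and its words had a median of 1 copy. The 4930590L20Rik-Gm35244 and Gm41480-Gm41481 windows, on different chromosomes, shared an unbroken run of 125 bases. The Macc1-Tmem196 window shared 71 bases with the first of them and 52 with the second. The Gm32936-LOC108167369 and Gm20756-Gm30779 windows shared 45 bases, read from opposite strands. Among all 19566 gene-desert regions, 10809 (55.2%) had a central window of up to 300 bases that shared at least 1 word of 31 bases with the window of another gene-desert region. Linked through such words, 9989 of them (51.1%) formed a single chain that ran over all 18 chromosomes, and the next group held 21 regions. Both shares depend on the number of windows compared. No matching share is given here for the 125448 regions nearer to genes or for desert sequence outside peaks. Whether such sharing is particular to gene-desert regions was therefore not tested.

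Desert sequence, counted as bases 100 kb or more from every transcript, came to 339 Mb in 1099 stretches, or 15.3% of the known sequence of these chromosomes. Gene-desert regions stood at 57.8 per Mb of it, against 66.8 per Mb in the rest. The regions were short, with a median length of 2400 bp (quartiles 1400 and 3800) beside 3200 bp in the rest. Their GC content was low, with a median of 43.3% beside 45.5%, and they held a median of 6.67 CpG sites per kb beside 9.41. A median of 56.6% of their bases was soft-masked, beside 25.9% in the rest, and 3281 of them (16.8%) were at least 90% soft-masked, beside 5.59% of the rest. In 23.9% of them the central words had 10 or more copies in the genome, beside 9.83% of the rest. These features describe the sequence under the regions and were given no test.

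Gene deserts were covered by H3K9me3 peaks to a smaller extent than the rest of the genome in all libraries except 1. In wild-type cells, 7.14% and 7.12% of desert sequence lay in peaks, against 19.2% and 18.4% of the rest. In *Uhrf1* KO cells, 8.93% and 8.19% of desert sequence lay in peaks, against 8.40% and 15.3% of the rest. In *Dhx9* KO cells the desert values were 7.99% and 11.2% and the rest values 18.7% and 17.6%. Both wild-type libraries were thus below all 4 knockout libraries in deserts, while in the rest *Uhrf1* KO replicate 1 stood far below the other libraries. Across the 6 libraries, covered desert sequence was lower than the rest by 7.84 percentage points on average (SD 4.70), in 5 of 6 libraries, and an exact two-sided sign-flip permutation test over libraries gave p = 0.0625 (0.075 after adjustment over 6 measures).

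Peaks in deserts stood higher over background than peaks elsewhere in every library. The median log2 fold over background of desert peaks was 1.57 and 1.59 in wild-type, 1.85 and 1.94 in *Uhrf1* KO and 1.26 and 1.32 in *Dhx9* KO cells, and outside deserts it was 1.01 and 1.01, 1.46 and 1.18, and 0.89 and 0.97. The desert value was higher in 6 of 6 libraries, by 0.50 on average (SD 0.16), with p = 0.0312 in the exact sign-flip permutation test, the smallest 6 libraries can give, and 0.0625 after adjustment. ChIP reads per kb called were also higher in deserts in 6 of 6 libraries, by 7.55 on average (SD 5.23), with the same exact p = 0.0312 and 0.0625 after adjustment. The excess was 11.6 reads per kb or more in 3 libraries but 0.284 reads per kb in *Uhrf1* KO replicate 1. Soft-masked bases made up 51.4% to 58.9% of the bases in desert peaks and 26.8% to 41.3% of those in other peaks. That difference was 22.9 percentage points on average (SD 2.84), in the same direction in 6 of 6 libraries. The exact sign-flip p was again 0.0312, and 0.0625 after adjustment. All libraries share the same genome, so these tests ask only whether a difference has the same sign over libraries. The soft-masked share of desert sequence outside peaks is not given here, so a link of masking to H3K9me3 was not tested. None of the measures passed 0.05 once adjusted at 100 kb, and 5 of them did at 200 kb, each with an adjusted p of 0.0375.

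The difference between desert peaks and other peaks in how repeatably they were called had no single direction over libraries. The share of desert peaks that overlapped a peak of the other library of the same genotype was 80.2% and 74.8% in wild-type, 71.2% and 72.8% in *Uhrf1* KO and 75.2% and 61.6% in *Dhx9* KO cells. Outside deserts the shares were 82.2% and 81.6%, 83.9% and 57.6%, and 71.0% and 75%. The mean difference was -2.60 percentage points (SD 10.9), lower in 4 of 6 libraries, with p = 0.562 in the exact sign-flip permutation test. Both values of a genotype come from the same pair of libraries. The 6 differences are therefore not independent, and this test cannot decide whether repeatability differs. Median desert peaks were 1600 to 2200 bp long and median other peaks 2200 to 3000 bp, shorter in deserts in 5 libraries and equal in *Uhrf1* KO replicate 1 (mean difference -733 bp, SD 450, exact permutation p = 0.0625). The peaks behind these values rested on few reads, with a median of 47 ChIP reads per desert peak in *Uhrf1* KO replicate 1 and 78 to 96 in the other libraries.

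**Figure D1:**
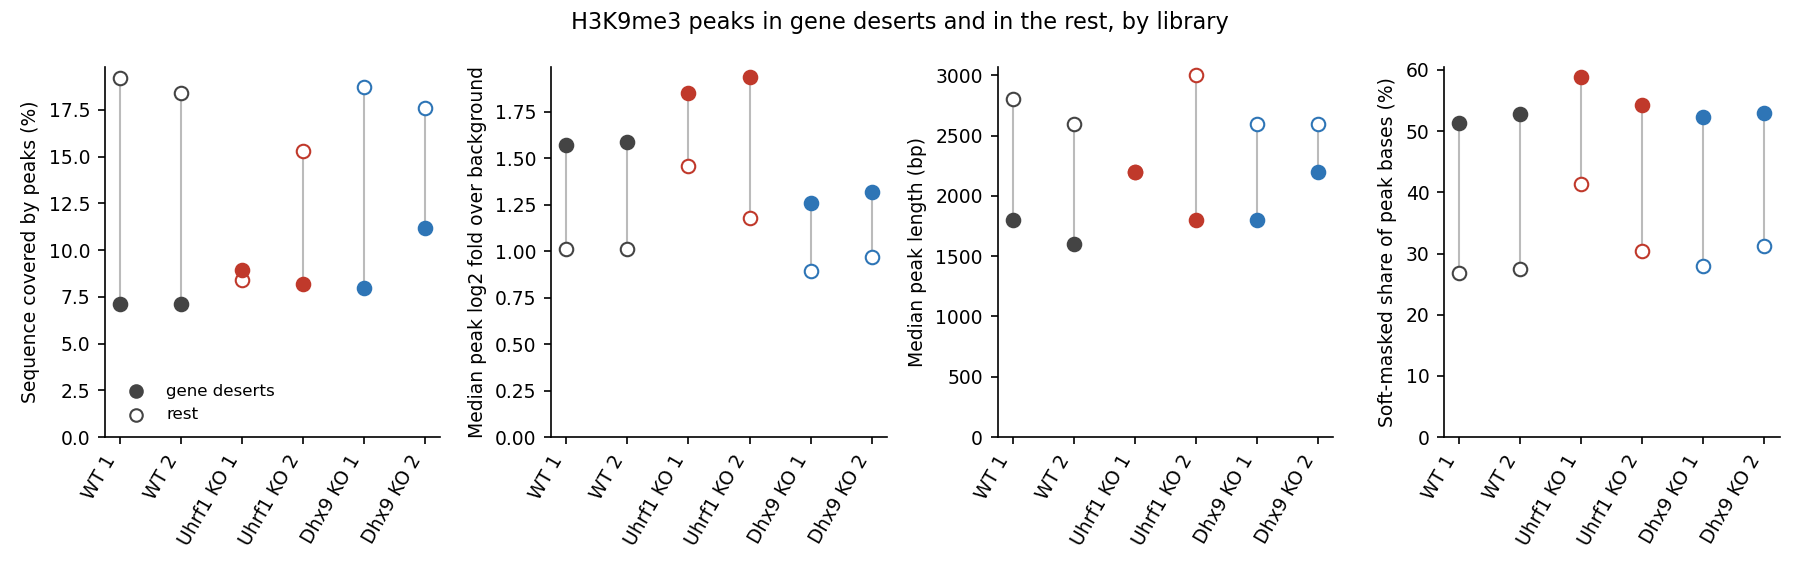
Sequence covered by peaks (%), median log2 fold of peaks over background, median peak length (bp) and soft-masked share of peak bases (%) in gene deserts (filled) and in the rest (open), 1 point per library, with a line joining the points of a library. Filled points lie above open points in 6 of 6 libraries for log2 fold and soft-masked share, and below them for coverage in all libraries except *Uhrf1* KO replicate 1.

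The libraries were not alike in reads within peaks or in background, and these differences touch every comparison between genotypes. *Uhrf1* KO replicate 1 had 6703081 ChIP reads in all its peaks, and the other libraries had 16966576 to 20875020. Such totals also depend on how much was called, 70195 peaks in that library and 93916 to 125453 in the others. At desert peaks with the same limits, *Uhrf1* KO replicate 2 had a median of 2.01 times the ChIP reads of replicate 1. The paper describes subsampling libraries to a like number of reads before peak calling. Desert peaks with the same limits in 2 lists had identical background reads in 100% of cases between wild-type and *Dhx9* KO lists, and in 2.56% to 4.66% of cases between wild-type and *Uhrf1* KO lists, with a median background 0.594 to 0.603 of the wild-type value. Genotype and background therefore cannot be told apart for *Uhrf1* KO. In *Dhx9* KO replicate 1, 1463 gene-desert regions of chromosome 4 had a peak, against 559 to 751 in the other libraries, and on chromosome 8 it was 489 against 714 to 1279. Replicates are separate samples by their labels, and which clone each *Uhrf1* KO library came from is not stated, so p-values measure the spread between these libraries.

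Gene-desert regions were most often called in a single library or in all 6. A single library called 6625 of them (33.9%, beside 28.6% of all merged regions), and all 6 called 4515 (23.1%, beside 22.5%). The regions called in all 6 were longer, with a median of 4600 bp against 1400 bp for those of a single library, and had a soft-masked median of 66.5% against 54.5%. The single calls were uneven: 1813 came from *Dhx9* KO replicate 2, 1581 from *Uhrf1* KO replicate 1 and 1491 from *Dhx9* KO replicate 1, of which 564 lay on chromosome 4, while wild-type replicates 1 and 2 gave 498 and 722 and *Uhrf1* KO replicate 2 gave 520. Regions whose windows shared a word of 31 bases with another gene-desert region were called in all 6 libraries in 27.6% of cases, and those that shared none in 17.5%.

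Of the 5 strongest regions of at least 2 kb called in all 6 libraries, by their lowest log2 fold, 4 are described, on chromosomes 12 and 5. The region between Macc1, known as a regulator of MET in colon cancer, and Tmem196 (2200 bp, 124 kb from Macc1) had log2 folds over background of 4.42 and 4.61 in wild-type, 3.5 and 4.00 in *Uhrf1* KO and 3.35 and 3.91 in *Dhx9* KO cells. It rested on 115 and 126, 39 and 162, and 51 and 75 ChIP reads over 5 to 8 background reads, and both *Dhx9* KO libraries and *Uhrf1* KO replicate 1 stood below wild-type in reads. The Gm32936-LOC108167369 region (5600 bp) had log2 folds of 4.00 and 3.07 in wild-type, 3.16 and 3.89 in *Uhrf1* KO and 3.16 and 3.65 in *Dhx9* KO cells, with the groups overlapping. The other strong regions, between Gm32631 and Gm32773 and between Gm42163 and Gm35251, had log2 folds from 3.16 to 4.79. With background reads this few, a small number of reads sets the fold. The rank is by fold and not by ChIP reads, so a low background also places a region high. In wild-type replicate 1, regions called in all 6 libraries outside chromosomes 4 and 8 had 62.4 ChIP and 20.1 background reads per kb.

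Distance from genes went together with repeat content and enrichment across the whole set of merged regions. Regions that overlapped a transcript had a soft-masked median of 21.4% and a median wild-type log2 fold of 1.03. At 100 to 200 kb these were 47.3% and 1.57, at 200 to 500 kb 60.5% and 1.79, at 500 to 1000 kb 68.3% and 1.92, and beyond 1000 kb, for 334 regions, 71.9% and 2.04. Median GC content was lower with distance along the same classes, from 46.1% in regions that overlapped a transcript to 42.9% beyond 1000 kb. Masking and wild-type log2 fold differed little across the threshold itself. The 1598 regions at 90 to 100 kb had a soft-masked median of 42.6% and a wild-type log2 fold of 1.49. For the 1428 regions at 100 to 110 kb these were 41.7% and 1.51. The share called in all 6 libraries was 25.5% at 90 to 100 kb and 21.1% at 100 to 110 kb. The values come from the same libraries in every class and carry no test.

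**Figure D2:**
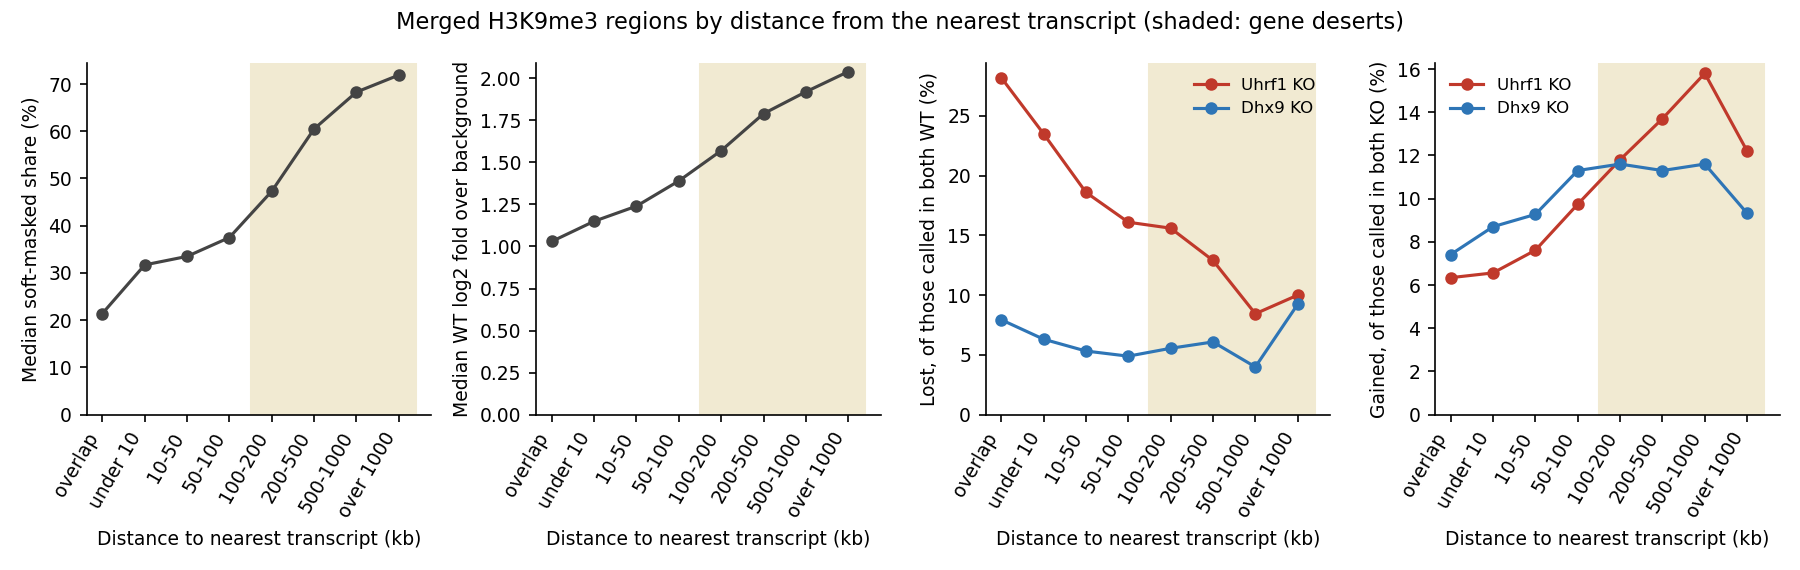
Merged regions by distance to the nearest transcript (kb), with the median soft-masked share (%), the median log2 fold over background in wild-type cells, and the share of regions lost or gained in *Uhrf1* KO (red) and *Dhx9* KO (blue) cells, with gene deserts shaded. The soft-masked median goes from 21.4% to 71.9% and the wild-type log2 fold from 1.03 to 2.04 with distance, while the share lost in *Uhrf1* KO cells goes from 28.2% to 10.0%.

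In *Uhrf1* KO cells, a smaller share of gene-desert regions than of regions nearer to genes was lost, a difference given here as counts with no test. Lost means here that a peak was called in each wild-type library and in no library of the knockout, gained means the opposite, and both are counts without a test. Of 7405 gene-desert regions called in both wild-type libraries, 1011 (13.7%) were lost in *Uhrf1* KO cells, beside 23.4% of all 69285 regions called in both wild-type libraries and 24.5% of the regions nearer to genes. A further 5169 (69.8%) had a peak in both *Uhrf1* KO libraries. Just across the distance threshold the order was the other way. Of 656 regions at 90 to 100 kb called in both wild-type libraries, 14.3% were lost. Of 550 such regions at 100 to 110 kb, 18% were lost. The gene-desert share was the lower one in every alternative tried, between 11.7% and 27.4% against 19.3% to 48.6%, the highest pair being that without *Uhrf1* KO replicate 2, where 2056 were lost. With a single library on a side the criterion is looser. Without wild-type replicate 1, 2406 were lost (24% against 34.3%), and without wild-type replicate 2, 2034 (22% against 33.7%). Lost gene-desert regions had a median GC content of 45.9%, a soft-masked median of 36.7% and a mean wild-type log2 fold of 1.26 at the median, against 42.4%, 65.6% and 1.89 for those that were kept in both knockout libraries.

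The share lost in *Uhrf1* KO cells followed GC content and wild-type enrichment, in gene deserts and elsewhere alike. Below 40% GC, 0.883% of 793 gene-desert regions were lost, at 40 to 42% GC 2.84%, at 42 to 45% GC 11.8%, at 45 to 50% GC 25.1% and from 50% GC upward 46.6% of 343. In regions nearer to genes the same classes gave 1.31%, 3.75%, 15.6%, 27.1% and 48.4%. Of the gene-desert regions, 33.1% lay below 42% GC, and of the other regions 10.1%. By mean wild-type log2 fold, 30.7% of gene-desert regions below 1 were lost, 19.6% between 1 and 1.5, 11.8% between 1.5 and 2, 4.19% between 2 and 3 and 2.10% from 3 upward. The other regions gave 40.3%, 18.2%, 10.6%, 4.76% and 2.02%. Gene-desert and other regions differed by -10.9 percentage points over all classes. Within a GC class they differed by at most 3.81 points, and within a log2 fold class by at most 9.58, in the class below 1. GC content, enrichment and distance vary together, and their separate parts in the count were not tested.

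**Figure D3:**
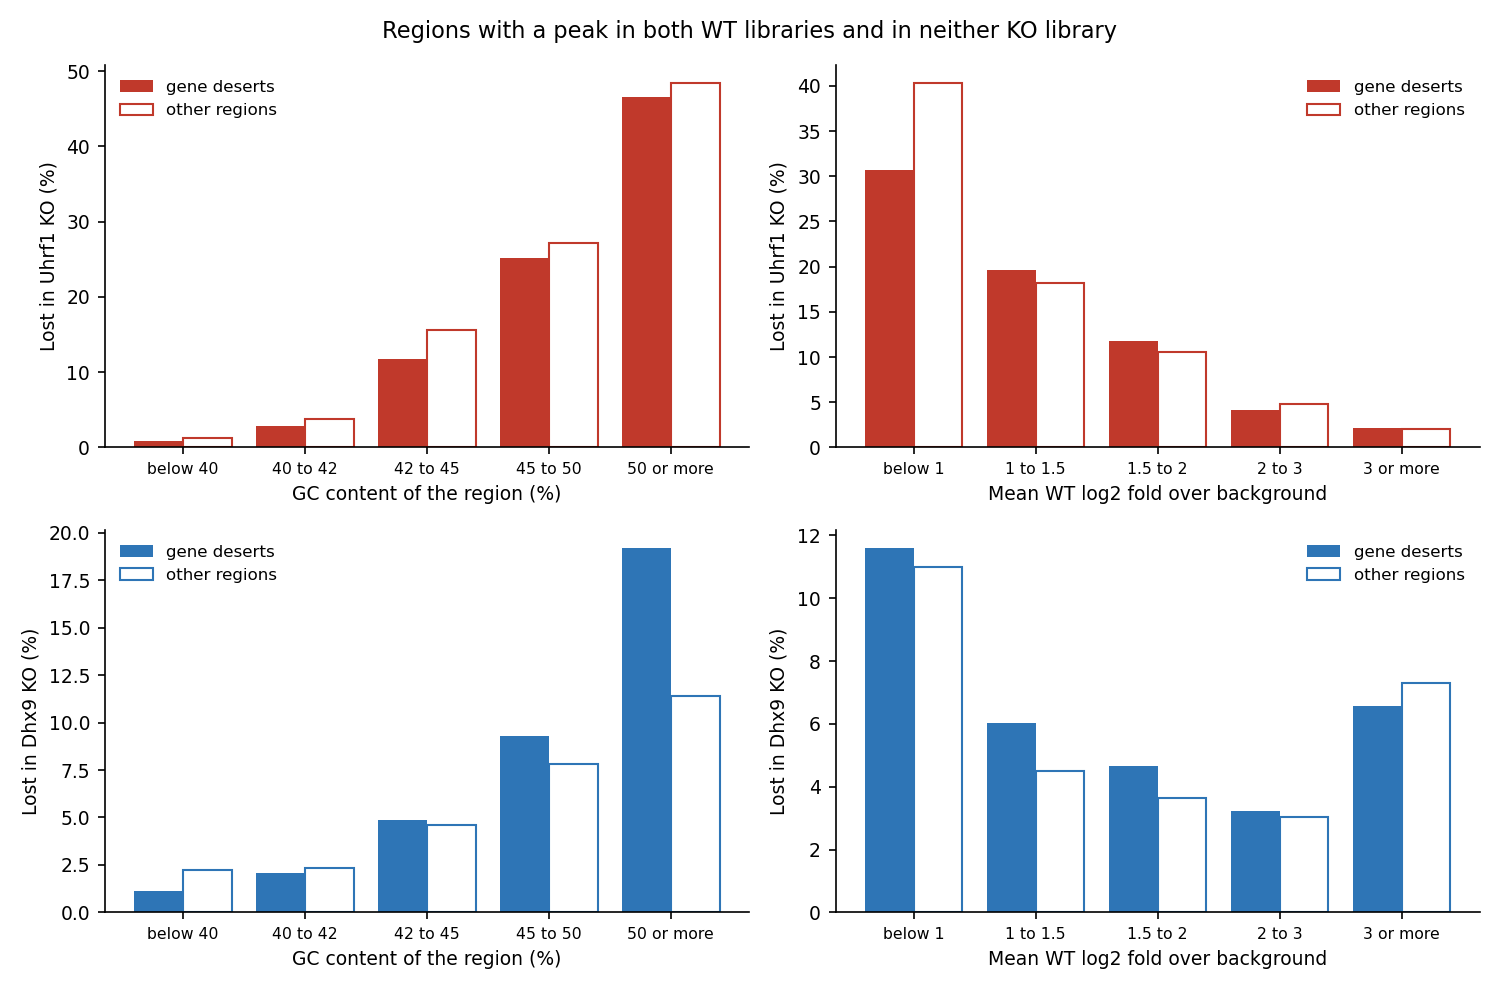
Share of regions called in both wild-type libraries and lost in a knockout, by GC content (%) and by mean wild-type log2 fold over background, for gene deserts (filled) and other regions (open), in *Uhrf1* KO (top) and *Dhx9* KO (bottom) cells. In *Uhrf1* KO cells both sets go from about 1% below 40% GC (0.883% and 1.31%) to 46.6% and 48.4% from 50% GC upward.

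The lost regions of at least 2 kb with the highest wild-type log2 fold were weak in reads. The B020011L13Rik-Tsn region, 102 kb from Tsn, which encodes the nucleic acid-binding protein translin, had 43 and 50 ChIP reads over 6 and 7 background reads in wild-type cells (log2 folds 3.00 and 3.05), no peak in either *Uhrf1* KO library, and 54 and 99 reads (0.76 and 1.25) in *Dhx9* KO cells. A further Gm32936-LOC108167369 region, 387 kb from the latter, had log2 folds of 2.48 and 2.52 in wild-type cells, 1.65 in *Dhx9* KO replicate 2 and no peak in the other libraries. The Gm41710-Prelid2 region had 2.48 and 2.31 in wild-type and 2.52 and 1.59 in *Dhx9* KO cells, and none in *Uhrf1* KO cells. A list with no peak does not show that no reads were there.

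Gene-desert regions were gained in *Uhrf1* KO cells at 918 sites, or 13.1% of the 7000 called in both *Uhrf1* KO libraries, beside 8.02% of all such regions and 7.04% of those nearer to genes. The excess over the rest depended on how peaks were counted: with an equal number of peaks per library it was 17.0% against 17.4%, and with peaks of log2 fold 1 or more 17.3% against 17.0%. The count went to 1490 (21.2% against 11.5%) without wild-type replicate 2 and 2029 (20.3% against 12.6%) without *Uhrf1* KO replicate 1. It went to 3176 (32% against 17.1%) without *Uhrf1* KO replicate 2. On either side of the distance threshold, 9.08% were gained at 90 to 100 kb and 13.2% at 100 to 110 kb. Gained gene-desert regions had a median GC content of 41.8%, a soft-masked median of 52.9% and a log2 fold of 1.81 at the median in the knockout libraries. The strongest of them were Gm6280-Gm30439 on chromosome 14, with log2 folds of 4.24 and 3.96 in *Uhrf1* KO cells from 26 and 79 ChIP reads over 2 and 4 background reads, and Gm20756-Gm30779 on chromosome 6, with 4.18 and 3.66 from 25 and 80 reads over 2 and 5. Neither had a peak in any other library, and both were over 99% soft-masked, with words of 215 and 360 copies in the genome. The Gm34912-Adgrl3 region on chromosome 5, beyond the gene of the adhesion receptor latrophilin 3, had 5.58 and 3.42 in *Uhrf1* KO cells and 1.72 in *Dhx9* KO replicate 2. Reads from words with this many copies can be placed at more than 1 of them, so the position of such a peak is uncertain.

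In *Dhx9* KO cells, which were compared with the same 2 wild-type libraries, 417 gene-desert regions (5.63% of 7405) were lost, beside 6.77% of all regions called in both wild-type libraries and 6.91% of those nearer to genes. The order of both sets turned without *Dhx9* KO replicate 2, at 17.9% against 14.9% with 1351 lost, and it was 11.1% against 18% with 830 lost without *Dhx9* KO replicate 1. Without wild-type replicates 1 and 2 in turn, 1434 (14.3% against 14.6%) and 1149 (12.4% against 13.7%) were lost. Just across the distance threshold the share was higher on the desert side, with 5.49% lost at 90 to 100 kb and 6.18% at 100 to 110 kb. Of the lost gene-desert regions, 78 lay on chromosome 8, where *Dhx9* KO replicate 1 had few peaks, and 6 on chromosome 4. Without both chromosomes, an alternative added after seeing the data, 333 (5.37% against 6.66%) were lost. The loss showed the same order by GC content, from 1.13% below 40% GC to 19.2% from 50% GC upward, the latter against 11.4% in the other regions.

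The 3 lost regions with the highest wild-type log2 fold in this comparison, over few background reads, were repeats with many CpG sites. The lost gene-desert regions as a set had a soft-masked median of 54.1% and 7.14 CpG sites per kb. For those kept in both *Dhx9* KO libraries these were 62.4% and 7.86. The 4930590L20Rik-Gm35244 region on chromosome 1 was fully soft-masked, with 38.3 CpG sites per kb. It had log2 folds of 4.60 and 6.41 in wild-type cells from 87 and 73 ChIP reads over 4 and 1 background reads, 6.79 and 4.01 in *Uhrf1* KO cells, and no peak in *Dhx9* KO cells. The Gm41480-Gm41481 region on chromosome 16, which shared 125 bases with it, had wild-type log2 folds of 3.29 and 3.5, *Uhrf1* KO values of 2.76 and 4.56 and no peak in *Dhx9* KO cells. The Macc1-Tmem196 region, which shared bases with both, kept a peak in both *Dhx9* KO libraries, at 51 and 75 reads against 115 and 126 in wild-type cells. The Gm32631-Gm32773 region at 377 kb from Gm32631, 99.8% soft-masked and with words of 4402 copies, had 51 and 43 wild-type reads and 49 and 80 *Uhrf1* KO reads. The words of the chromosome 1 and chromosome 16 regions had 396 and 387 copies, so the position of these peaks is uncertain as well.

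Gene-desert regions gained in *Dhx9* KO cells numbered 873, or 11.5% of the 7623 called in both *Dhx9* KO libraries, beside 8.73% of all such regions and 8.36% of those nearer to genes. Of them 157 lay on chromosome 4 and 15 on chromosome 8, and without these chromosomes 701 (10.8% against 8.11%) were gained. With an equal number of peaks per library the shares were 10.6% and 11.4%, and at log2 fold 1 or more 485 were gained (9.47% against 10.6%). Leaving out wild-type replicates 1 and 2 in turn gave 1321 (17.2% against 13.9%) and 1499 (19.6% against 14%) gained. Leaving out *Dhx9* KO replicates 1 and 2 gave 3740 (30.1% against 20.4%) and 2689 (25.4% against 20.9%). On either side of the distance threshold, 10.5% were gained at 90 to 100 kb and 12.6% at 100 to 110 kb. The 3 strongest gained gene-desert regions all had peaks in both *Uhrf1* KO libraries as well. Mir6350-C230029F24Rik, 822 kb from Mir6350, had 45 and 66 ChIP reads in *Dhx9* KO (log2 folds 3.49 and 3.73) and 82 and 53 in *Uhrf1* KO cells (2.14 and 2.80). Gm30778-4932441J04Rik had log2 folds of 2.27 and 2.35 in *Dhx9* KO and 1.78 and 2.36 in *Uhrf1* KO cells. Gm41929-Cdh7, on the side of the gene of cadherin 7, a cell adhesion molecule, had 2.87 and 2.22 and 1.73 and 2.17. All 3 lacked a peak in both wild-type libraries, as the rule requires, and both knockout comparisons share those libraries.

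By chromosome, deserts of chromosomes 7 and 8 were the most covered in wild-type cells, at 13.0% and 12.8% and at 14.4% and 14.0%, and those of chromosomes 14, 16 and 19 the least, at 4.26% to 4.75%. *Dhx9* KO replicate 2 covered the most desert sequence on every chromosome except 4, with 22.5% on chromosome 8. *Dhx9* KO replicate 1 covered 18% of the deserts of chromosome 4 and 7.17% of those of chromosome 8. In gene-desert regions called in all 6 libraries, its ChIP reads per kb on chromosome 8 were 50.6 (320 regions), against 52.7 on the chromosomes other than 4 and 8 (3882 regions), and on chromosome 4 they were 57.4 (313 regions). In wild-type replicates 1 and 2 these values were 61.5 and 59.9 on chromosome 8, 62.4 and 61.6 elsewhere, and 60.2 and 58.0 on chromosome 4. The background was also uneven, with 28.8 background reads per kb in wild-type replicate 1 on chromosome 8 against 20.1 elsewhere and 19.8 on chromosome 4, and with 14.9, 10.5 and 10.5 in *Uhrf1* KO replicate 1. The part of copy number in these values was not tested.

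**Figure D4:**
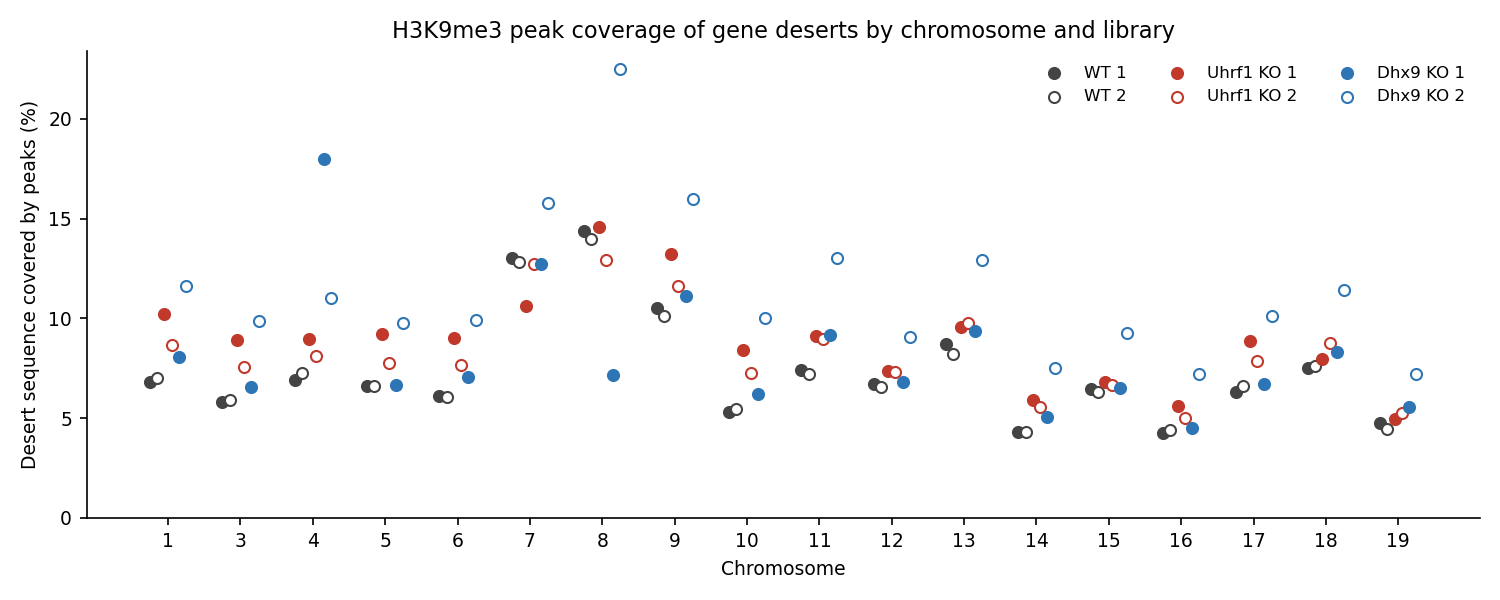
Desert sequence covered by peaks (%) on each chromosome, 1 point per library, replicate 1 filled and replicate 2 open. *Dhx9* KO replicate 1 stands at 18% on chromosome 4 and 7.17% on chromosome 8, and *Dhx9* KO replicate 2 is the highest library on every chromosome except 4.

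Single deserts ranged widely in coverage. Of 206 deserts with at least 500 kb of known sequence, all held gene-desert regions, a median of 45 each, and the share covered in the mean of both wild-type libraries ran from 0.442% to 38.0% with a median of 4.31%. The most covered was the 0.79 Mb between Plekhb2 and 1110002O04Rik on chromosome 1 (34979586 to 35769594), at 39.1% and 36.9% in wild-type, 20.8% and 33.8% in *Uhrf1* KO and 47.1% and 49.6% in *Dhx9* KO cells. Both *Uhrf1* KO libraries were below and both *Dhx9* KO libraries above the wild-type ones there. The desert before Tox3, which encodes an HMG-box protein, on chromosome 8 (89562516 to 90147109) had 38.8% and 35.5%, 23.8% and 31.6%, and 14.5% and 52.1%, so that the *Dhx9* KO libraries lay on either side of wild-type. The third, between Gm36528 and Gm10051 on chromosome 5, had 34.0% and 28%, 13.8% and 21.1%, and 22.1% and 31.5%.

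The least covered long deserts stayed low in every library. The desert between Gm12130 and 4930553C11Rik on chromosome 11 (38620046 to 39207702) held 7 gene-desert regions and was covered over 0.272% and 0.613% in wild-type, 0.885% and 0.170% in *Uhrf1* KO and 0.306% and 1.12% in *Dhx9* KO cells. The one before Lsamp, which encodes a neuronal adhesion molecule, on chromosome 16 had 15 regions and 0.730% to 1.74% in the 6 libraries. The one between Gm35467 and Gm20387 on chromosome 6 had 13 regions and 0.900% to 1.65%. The longest desert, 3.28 Mb between D3Ertd751e and 2610316D01Rik on chromosome 3 (41903293 to 45180438), held 192 regions and was covered over 5.65% and 5.83% in wild-type, 10.9% and 6.79% in *Uhrf1* KO and 5.47% and 8.80% in *Dhx9* KO cells. The next longest, 2.87 Mb before Adgrl3 on chromosome 5 and 2.82 Mb between Gm31973 and Gm41924 on chromosome 1, had 2.63% and 3.14% and 4.94% and 5.20% in wild-type cells. In both, *Uhrf1* KO replicate 1 (5.96% and 9.59%) and *Dhx9* KO replicate 2 (4.58% and 10.0%) were the highest libraries.

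The longest deserts also held the regions farthest from any transcript, all 3 of them inside the D3Ertd751e desert. The region at 43538201 to 43542200 (4000 bp, 1735 kb from a transcript) was called in all 6 libraries, with log2 folds of 2.3 and 2.81 in wild-type, 2.41 and 3.05 in *Uhrf1* KO and 2.11 and 2.06 in *Dhx9* KO cells. A region of 800 bp at 43544401, also 1735 kb away, was called in wild-type replicate 2 and *Dhx9* KO replicate 2 alone, with 47 reads over 27 background reads in each. The third, at 43514801 (1712 kb), was called in 5 libraries with log2 folds from 1.71 to 5.48, the highest from 40 reads over 1 background read.

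The longest single region, 80800 bp, lay on chromosome 8 (92464401 to 92545200) between Irx5 and Irx6, which encode Iroquois homeobox transcription factors, 103 kb from Irx5. It was little masked (16.9%) and weakly enriched, with highest log2 folds of 1.23 and 1.16 in wild-type, 1.54 and 1.18 in *Uhrf1* KO and 0.78 and 1.00 in *Dhx9* KO cells. It was made of 4 and 3 peaks in wild-type, 13 and 5 in *Uhrf1* KO and 12 and 3 in *Dhx9* KO cells. The other long ones, 56600 bp on chromosome 8 between Gm39242 and Gm34675 and 56200 bp on chromosome 7 between LOC108167464 and Gm30395, were 19% and 17.2% soft-masked, with log2 folds up to 2.43. These long regions were poor in soft-masked sequence beside the median of 56.6% of gene-desert regions.

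The nearest gene of a gene-desert region was often a Gm or Rik model, and no matching share is given here for regions nearer to genes. Gene models named Gm with a number were nearest to 9229 regions (47.2%) and Rik models to 2009 (10.3%). MicroRNA genes were nearest to 384 regions and cadherin or protocadherin genes to 252. Zfp genes were nearest to 39, vomeronasal receptor genes to 30 and olfactory receptor genes to 1. In all, 1664 genes were nearest to at least 1 region, D3Ertd751e to the most (101), and Slc10a2, which encodes the intestinal bile acid transporter, to 85.

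The share of ChIP reads in peaks that fell in gene deserts was 6.75% and 7.02% in wild-type, 14.5% and 10.2% in *Uhrf1* KO and 7.12% and 9.76% in *Dhx9* KO cells. All 4 knockout libraries were above both wild-type libraries. The mean difference was 5.48 percentage points for *Uhrf1* KO and 1.55 for *Dhx9* KO cells, with p = 0.33 in an exact two-sided permutation test of 2 against 2 libraries in each case, the smallest p this design allows. Without *Dhx9* KO replicate 2 the *Dhx9* KO difference was 0.231 percentage points. Without *Uhrf1* KO replicate 1, the library with the fewest reads in peaks, the *Uhrf1* KO difference was 3.35. The share depends on how much is called outside deserts, which was lowest in *Uhrf1* KO replicate 1.

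Read counts could be compared at the few gene-desert regions that were called in all 4 libraries of a comparison and covered over at least 80% in each. For *Uhrf1* KO these were 261 of the 5169 gene-desert regions called in all 4. With edgeR's quasi-likelihood test and Benjamini-Hochberg adjustment over all 1565 regions tested, 7 gene-desert regions (2.68%) had lower counts, beside 5.24% of all regions tested, and 1 (0.383%) had higher counts, beside 1.02%. The median log2 change was 0.01 in gene-desert regions and -0.04 in all regions tested. At an unadjusted p under 0.05 in the same test, 26 of the 261 were lower and 22 higher. Among all 1565 regions tested, 386 were under 0.05 in either direction. Over all 5169 gene-desert regions, with no minimum on the covered share, the median log2 change was -0.11 (-0.08 in all regions tested). At an unadjusted p under 0.05 by edgeR's test, 428 were lower and 95 higher, and 0 passed the adjustment. The matching counts over all 39457 regions of that fit are not given here. Without *Uhrf1* KO replicate 1 the median log2 change was 0.13 in 531 gene-desert regions and -0.04 in all 5605 regions tested. Without *Uhrf1* KO replicate 2 it was 0.03 in 292 and -0.04 in all 1750. Each of these fits had 1 knockout library assumed to vary like the wild-type pair. Without wild-type replicate 1 there were 5 lower and 0 higher, and without replicate 2 there were 3 and 0. With equal library sizes, which moved the median of all regions tested to -0.22, none passed in either direction, with 0 regions at an unadjusted p under 0.05.

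Of the 7 lower regions, 2 lay at the centromere ends of their chromosomes. The region at the start of chromosome 3 (3000001 to 3033800, 474 kb before Hnf4g, which encodes a nuclear receptor) had 247 and 218 ChIP reads per kb in wild-type, 80.1 and 206 in *Uhrf1* KO and 121 and 128 in *Dhx9* KO cells. Its fitted log2 change in *Uhrf1* KO cells was -0.55 (SE 0.15, edgeR adjusted p = 0.0476). The region of chromosome 4 at 3049801 to 3056600, before the vomeronasal receptor gene Vmn1r2, had 518 and 459, 155 and 364, and 337 and 223 reads per kb, with a log2 change of -0.74 (SE 0.12, edgeR adjusted p = 0.00564). In both, reads per kb were lower in each *Uhrf1* KO library than in each wild-type library, by more in replicate 1, the library with fewer reads.

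The largest change was at the Gm36563-Gm36689 region of chromosome 18 (13296401 to 13300600), with 354 and 371 reads per kb in wild-type, 69.5 and 215 in *Uhrf1* KO and 179 and 216 in *Dhx9* KO cells. Its log2 change was -1.24 in *Uhrf1* KO (SE 0.14, edgeR adjusted p = 0.000662) and -0.87 in *Dhx9* KO cells (SE 0.12, edgeR adjusted p = 0.0117). C330004P14Rik-Gm20125 on chromosome 10 followed, with ChIP read counts of 130 and 111 in wild-type cells, against 32 and 79 after *Uhrf1* KO, and a log2 change of -0.97 (SE 0.22, edgeR adjusted p = 0.0232; 0.0589 by DESeq2). Gm39199-Gm10649 on chromosome 8 had 168 and 213 wild-type reads, 47 and 132 *Uhrf1* KO reads and a change of -0.88 (SE 0.20, edgeR adjusted p = 0.0252). The other 2 lower regions had changes of -0.87 and -0.42. The GC content of the 7 was 47.5% to 51.2%, above the median of 43.3% of gene-desert regions. The single higher region, Gm38573-LOC108169192 on chromosome 6 (7400 bp, 7.54% soft-masked), had 106 and 92.8 reads per kb in wild-type, 79.3 and 158 in *Uhrf1* KO and 93.3 and 139 in *Dhx9* KO cells. Its fitted log2 change was 0.47 (SE 0.11, edgeR adjusted p = 0.0353; 0.0946 by DESeq2), on a scale that corrects for the smaller library.

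For *Dhx9* KO, 308 of 5692 gene-desert regions called in all 4 libraries could be tested among 2940 regions. By edgeR's quasi-likelihood test, 2 (0.649%) had lower counts, beside 0.408% of all regions tested, and 1 (0.325%) had higher counts, beside 0.034%. At an unadjusted p under 0.05 there were 21 lower and 14 higher, and the median log2 change was 0.00. Among all 2940 regions tested, 360 were under 0.05 in either direction. Over all 5692, with no minimum on the covered share, the median log2 change was -0.15 (-0.01 in all regions tested). At an unadjusted p under 0.05 by edgeR's test, 860 were lower and 62 higher, and 1 lower and 0 higher passed the adjustment. The matching unadjusted counts over all 56462 regions of that fit are not given here. The lower ones were the region at the start of chromosome 3, with a log2 change of -0.89 (SE 0.12, edgeR adjusted p = 0.011), and the Gm36563-Gm36689 region above. The higher one, Gm12374-Gm12381 on chromosome 4 (38066401 to 38069400), had 112 and 88 wild-type ChIP reads, 53 and 140 in *Uhrf1* KO and 242 and 211 in *Dhx9* KO cells, and a log2 change of 1.03 (SE 0.17, edgeR adjusted p = 0.0312). Both *Dhx9* KO libraries were above both wild-type libraries there, on the chromosome where replicate 1 had an excess of peaks, and the part of that excess was not tested. None of these 3 passed without wild-type replicate 1, and 1 lower and 0 higher regions passed without wild-type replicate 2. Without *Dhx9* KO replicate 1 the median log2 change was 0.00 in 505 gene-desert regions and -0.01 in all 5120 regions tested. Without *Dhx9* KO replicate 2 it was -0.08 in 466 and 0.01 in all 6221.

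**Figure D5:**
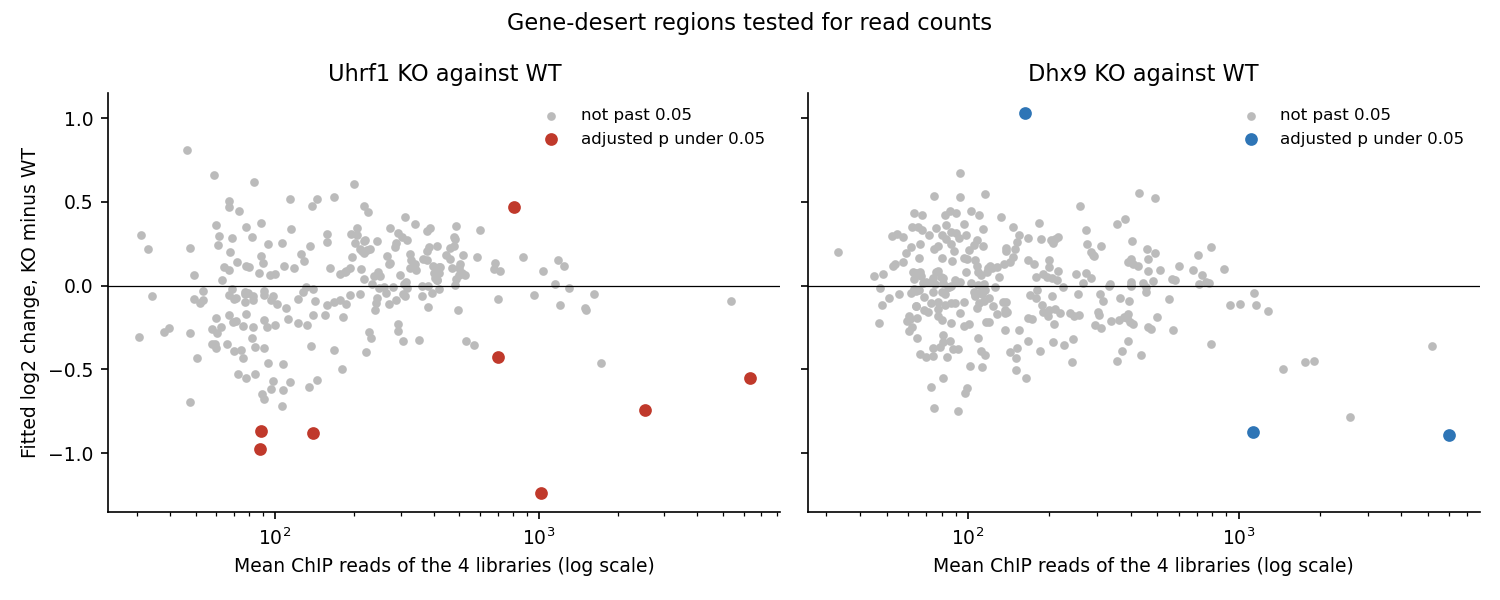
Fitted log2 change (KO minus WT) of the gene-desert regions tested, 261 for *Uhrf1* KO and 308 for *Dhx9* KO, against the mean ChIP reads of the 4 libraries (log scale), with regions past an adjusted p of 0.05 in colour. Most points lie near 0, and the coloured points are 7 lower and 1 higher in *Uhrf1* KO and 2 lower and 1 higher in *Dhx9* KO cells.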

How the data were processed

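H3K9me3 ChIP-seq peak lists of 6 of the 18 samples were used, and the other 12 samples were not analysed here. The authors aligned reads with Bowtie2 2.3.4.3 to mm10, subsampled them with SAMtools and called peaks in each library with epic2 0.0.51, keeping duplicates. They name wild-type input as the background. Each deposited list holds, for every peak, its p-value and false discovery rate, the ChIP count and the background count, a log2 fold over background and a score made from that fold by the peak caller. No column of per-sample values was left unmapped. Genotypes and replicate numbers come from the sample labels.

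Overlapping peaks were merged with Python 3.11.15, numpy 2.4.6 and pandas 2.3.3, and distances were taken to every transcript of the deposited annotation. Soft-masking, GC content and copies of 31-base words come from the GRCm38 reference. For the count tests edgeR 4.0.16 was run under R 4.3.3 (TMM, log called length as offset, filterByExpr, quasi-likelihood test, Benjamini-Hochberg adjustment over all regions tested, threshold 0.05), with DESeq2 1.42.0 as an alternative. Deserts were compared with the rest by exact sign-flip permutation over 6 libraries.

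Named regions are the 5 with the highest lowest log2 fold among those of at least 2 kb called in all 6 libraries, the 3 strongest lost and gained in each knockout, the 3 largest changes past the threshold in each direction, the 3 longest, the 3 farthest from a transcript and the 3 longest, most and least covered deserts. The centromere-end region of chromosome 4 and the counts of nearest genes outside that rule were chosen after their values were seen. A region that the rule names is not reported here. The regions and lists were chosen with earlier results of these data known. The SE of a log2 change comes from edgeR's quasi-likelihood fit and includes the spread between the libraries of a genotype. Lost and gained counts carry no measure of precision.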

Additional observations from a re-analysis of the deposited data

How the results depend on the processing

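Depth, calling and the choice of libraries limit these counts. Shares in brackets are for gene-desert against other regions. At 50 kb, 1776 regions were lost in *Uhrf1* KO (14.6% against 25.2%), and of 397 tested, 14 had lower and 2 higher counts. In *Dhx9* KO, 650 were lost (5.34% against 7.07%) and 1431 gained (11.4% against 8.09%). At 200 kb, 446 were lost (11.8% against 24%), 544 gained (14.2% against 7.42%) and 3 lower among 142 tested in *Uhrf1* KO. In *Dhx9* KO, 216 were lost (5.71% against 6.83%), 437 gained (11.3% against 8.56%) and 1 lower among 163 tested. Deserts then differed from the rest by -9.04 percentage points in coverage, 0.60 in log2 fold, -900 bp in peak length, 9.52 reads per kb and 29.0 percentage points in soft-masked bases. With curated transcripts alone, 2136 were lost (14.8% against 25.6%) and 1403 gained (11.4% against 6.69%) in *Uhrf1* KO. In *Dhx9* KO these were 821 (5.68% against 7.06%) and 1640 (11.2% against 8.02%). At a false discovery rate of 1e-10, 365 were gained in *Dhx9* KO (8.04% against 7.39%). At log2 fold 1 or more, 485 were gained (9.47% against 10.6%). There the difference in peaks that overlap the other replicate turned to 4.70 percentage points. Leaving out 1 library at a time gave 1243 to 2406 lost in *Uhrf1* KO (16.5% to 27.4% against 26.2% to 48.6%). It gave 1269 to 3176 gained there (18.1% to 32% against 11% to 17.1%). In *Dhx9* KO it gave 830 to 1434 lost (11.1% to 17.9% against 13.7% to 18%) and 1321 to 3740 gained (17.2% to 30.1% against 13.9% to 20.9%). In the count tests it gave 3 to 36 lower and 0 to 173 higher for *Uhrf1* KO, and 0 to 41 lower and 0 to 27 higher for *Dhx9* KO. DESeq2 gave 4 lower and 0 higher for *Uhrf1* KO, equal library sizes 0 and 0, no length offset 11 higher, all regions called in every library 0 and 0, and all 6 libraries in a single fit 1 and 0. For *Dhx9* KO the last pair of settings gave 1 and 0, and 0 and 0. With the replicate block there were 6 lower and 1 higher in *Uhrf1* KO and 3 lower and 1 higher in *Dhx9* KO. Same-numbered libraries of a comparison had correlations of 0.08 over the 1565 regions tested for *Uhrf1* KO and -0.06 over the 2940 for *Dhx9* KO. With 2 libraries of each genotype, this cannot decide whether same-numbered libraries were prepared together. The causes of these shifts were not tested, beyond fewer libraries or regions by construction.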
